A study of Mus musculus with 14 samples.

Results

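The 9 genes described here, Bace2, Slc18a1, Ppp1r1b, Tcn2, Cers4, Adora1, Atp2a3, 2210407C18Rik and Hpgd, are signalling, transport and metabolic genes, with the exception of 2210407C18Rik, for which no role is given here. They were picked by name from the 28022 genes of the RNA-seq count table because their counts were far higher in 3D culture than in 2D culture. The difference between 3D and 2D is therefore how they were chosen, and it is given as a description without a test. Tests were made of their response to endothelial co-culture, their levels in liver and fibroblasts, and the other genes of their pathways. The stated reason for the choice did not rest on these comparisons. The genes and the pathway lists were still chosen with earlier results of these data known, so these tests are not fully independent of the choice.

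The table held 14 mouse libraries from C57BL/6J material, 2 for each of 7 conditions. Induced hepatic stem cells (iHepSCs) are mouse embryonic fibroblasts converted with lentiviral Oct4 and Hnf4α, and were grown on plates alone (2D-iH) or with induced endothelial cells (2D-iHE). The same cells were grown as spheroids in a hydrogel of Matrigel and type I collagen, alone (iHLO, the liver organoids, labelled 3D-iHA) or with induced endothelial cells (iHEA, the assembloids). The label 3D-iHA spells out as hepatic assembloids and names no endothelial cells; reading it as iHLO is an inference from the study's methods, on which every iHLO value rests. All 4 cultures carried the same converted cells and received the same assembloid medium. The induced endothelial cells (iECs) were made from a human adult fibroblast line with ETV2, so co-cultures mixed human and mouse cells while reads were aligned to the mouse genome. The references were the parental embryonic fibroblasts, adult liver (the methods give 6-week-old mice) and midgestation fetal liver. The labels do not say whether 2 libraries of a condition came from separate cultures or animals, so p-values measure only the spread between these libraries, which may be technical. In bulk RNA, fewer cells of a type and less RNA per cell cannot be told apart.

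Library totals ranged from 20851489 to 35143325 counts. Libraries of 1 condition differed more in iHEA (chi-square per gene 10.9) and fetal liver (12.7) than elsewhere (2.93 to 3.49). The iHEA library whose column carries 2 conflicting numbers is called the unnumbered iHEA library. Hepatocyte markers were unevenly present in the cultures. Of 12, Alb, the main plasma protein of liver, had 2 to 210 counts per 2D library and 3 to 20 per 3D library, and Serpina1a, Cps1, Cyp2e1, Cyp3a11 and Asgr1 had at most 19. Apob (8622 to 22874 counts per culture library), Apoa1 (5697 to 12149) and Hnf4a (4117 to 7670) were abundant, and Ttr had 31 to 89 counts per 2D library and 2252 to 2924 per 3D library. The converted cells carry a lentiviral mouse Hnf4α cDNA, so the Hnf4a counts may include it, which was not tested.

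As background, several of these proteins act at the surface or on second messengers. Adora1 is a receptor for extracellular adenosine that lowers cyclic AMP, Ppp1r1b becomes an inhibitor of protein phosphatase 1 once phosphorylated by the cyclic AMP-dependent kinase, and Atp2a3 pumps calcium from the cytosol into the endoplasmic reticulum. Slc18a1 loads monoamines such as serotonin into secretory vesicles, and Bace2 is a membrane protease of the β-secretase family. In metabolism, Cers4 joins a fatty acid to a sphingoid base to make ceramide, Tcn2 encodes transcobalamin, the plasma carrier that delivers vitamin B12 to cells, and Hpgd oxidises prostaglandins to inactive forms. 2210407C18Rik is a gene known by its RIKEN identifier.

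RefSeq promoter windows (GRCm38.p6) matched 5 of the 9 genes, with 6 starts in all, since Adora1 has 2. The 250 bases before each start were searched on both strands for 12 motifs. The sequences of 3 windows are printed because they differ in their matches (a TATA box, repeated GC boxes, and a single GC box), with motif matches in capitals, 5′ to 3′ on the strand of the gene.

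2210407C18Rik (chr11:58613493-58613742, minus strand): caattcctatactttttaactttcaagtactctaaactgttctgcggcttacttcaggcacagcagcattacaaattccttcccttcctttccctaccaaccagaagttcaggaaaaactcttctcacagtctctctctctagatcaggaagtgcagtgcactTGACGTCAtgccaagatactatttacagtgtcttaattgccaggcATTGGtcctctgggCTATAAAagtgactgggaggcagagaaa

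Atp2a3 (chr11:72960919-72961168, plus strand): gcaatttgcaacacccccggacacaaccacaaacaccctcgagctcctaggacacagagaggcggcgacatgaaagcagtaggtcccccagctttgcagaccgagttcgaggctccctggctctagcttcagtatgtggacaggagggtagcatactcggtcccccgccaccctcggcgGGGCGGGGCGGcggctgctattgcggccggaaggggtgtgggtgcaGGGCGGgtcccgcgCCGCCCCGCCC

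Hpgd (chr8:56294302-56294551, plus strand): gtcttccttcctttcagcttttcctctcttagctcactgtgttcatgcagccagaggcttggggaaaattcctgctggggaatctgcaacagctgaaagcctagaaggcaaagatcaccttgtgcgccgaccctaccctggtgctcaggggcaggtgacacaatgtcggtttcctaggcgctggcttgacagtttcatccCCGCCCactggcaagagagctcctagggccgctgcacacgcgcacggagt

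The window of 2210407C18Rik held TATAAA beginning 27 bases before the start, a CCAAT match on the other strand beginning 42 bases before it, and overlapping TGACG matches on both strands beginning 87 and 84 bases before it. A TTTATNG match on the other strand overlapped the TATAAA. Its GC content was 43.2%, against 56.8% to 66.8% in the other 5 windows. The Atp2a3 window held 5 GGGCGG matches, some overlapping each other, and the Hpgd window held 1. Over all 32851 windows of this length, 12.4% held TATAAA, 33.8% CCAAT, 17.8% TGACG, 9.81% TTTATNG and 32.7% GGGCGG. The last of these was present in 4 of the 6 windows. Across its windows Adora1 had 1 match to GGAATG, the TEAD letters found in 12.6% of windows, and 1 to TGANTCA, the AP-1 letters found in 6.75%. No window held the forkhead letters TGTTTAC (3.17% of all windows) or the HNF1 letters GTTAAT (6.43%). The nuclear receptor letters AGGTCA (14%) were not in these windows either, nor were the E box CACGTG (6.02%) and the GATA letters AGATAA (9.99%). Of the 250 bases, 221 of the Cers4 window and all 250 of the Adora1 window with GGAATG are GENCODE exon of the same gene, so those matches lie in or among annotated exons, and the other 4 windows hold 0 exon bases of their gene. The motif map shows that 2210407C18Rik alone among these windows had TATA box, CCAAT and TGACG matches.

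**Figure D1:**
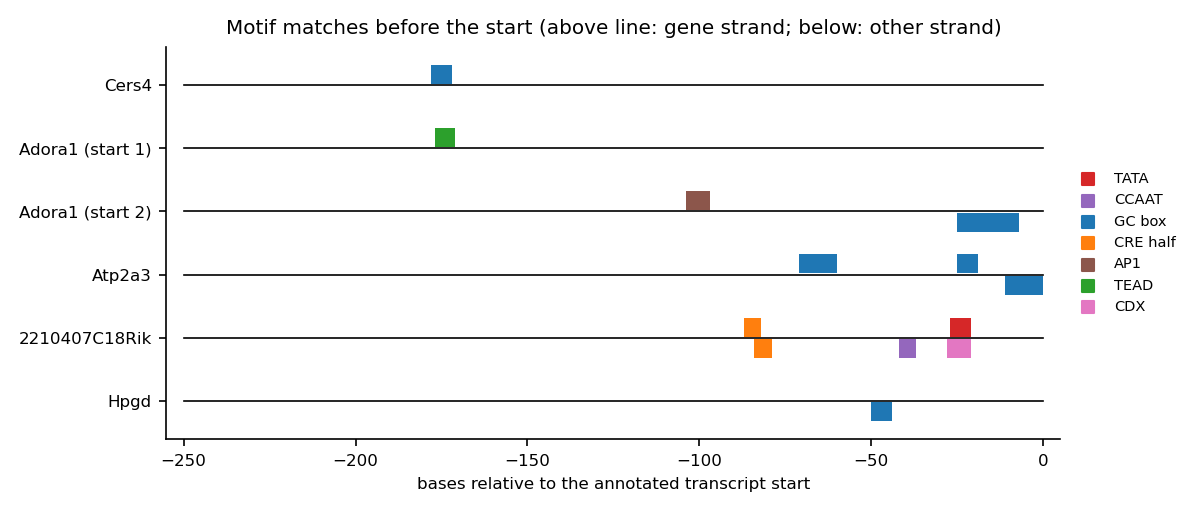
Motif matches in the 250 bases before each of the 6 annotated starts, with bases relative to the start on the x axis and matches on the gene strand drawn above each line. The blue GC box matches lie in 4 windows, with 5 in Atp2a3, and the TATA match of 2210407C18Rik begins 27 bases before its start.

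Read counts were scaled to library size as CPM, the count of a gene per 1e6 counts of its library, with trimmed-mean (TMM) library sizes over all 14 libraries. Every one of the 9 genes had all 4 of its 3D libraries above all 4 of its 2D libraries, as did 33.7% of the 13409 genes tested. Mean CPM was 6.28 (Tcn2) to 369 (Hpgd) times higher in 3D, with a median log2 ratio of 4.71. Ranked by fitted log2 ratio among those 13409 genes, they stood between 27 (Hpgd) and 548 (Tcn2). Per kilobase of exon, the 3D level was highest for 2210407C18Rik (82.8 ± 9.2 CPM per kb, SD, n = 4) and Tcn2 (75.8 ± 2.5). It was lowest for Cers4 (16.3 ± 1.2) and Ppp1r1b (18.3 ± 0.60). The plot of levels by library shows 3D libraries near each other for each gene and far from the 2D libraries.

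**Figure D2:**
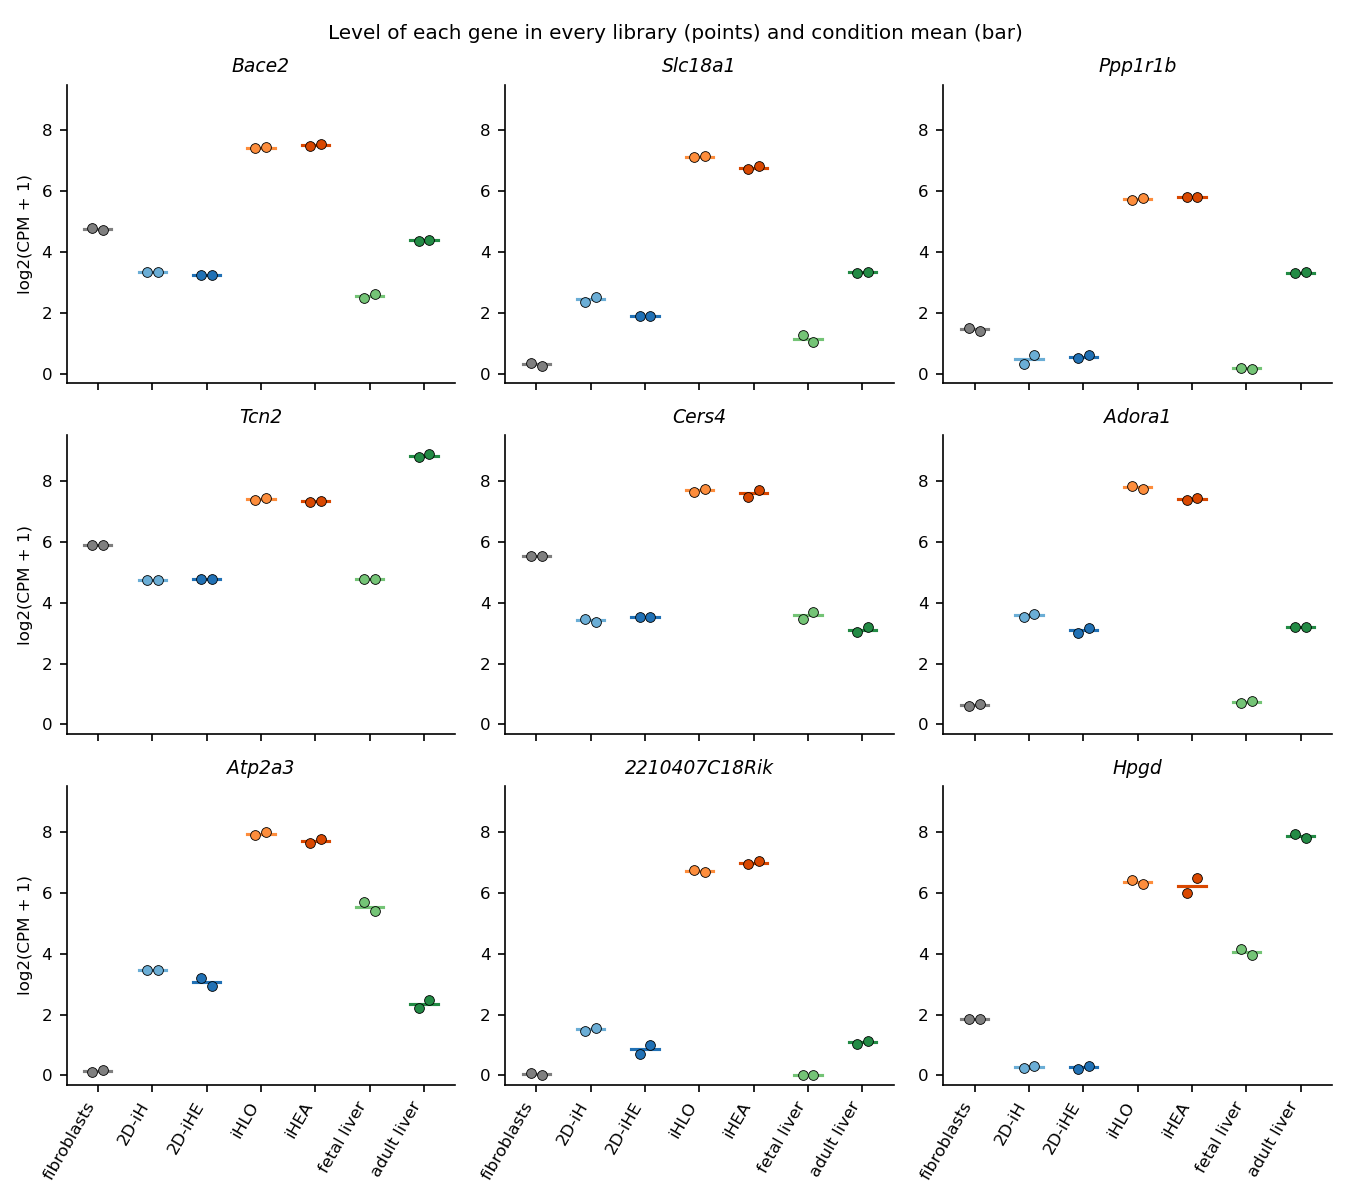
Level of each of the 9 genes as log2(CPM + 1) on the y axis in the 14 libraries (points; bars are means of the log2 values of 2 libraries) of the 7 conditions. The iHLO and iHEA points sit above the 2D points for each gene, and the adult liver points of Tcn2 and Hpgd sit above all others on this scale.

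The reference libraries were compared in 1 edgeR quasi-likelihood fit with Benjamini-Hochberg adjustment over 14876 genes, called where the adjusted p was under 0.05. Of the 9 genes, 8 entered it and 2210407C18Rik fell under the filter on low counts. Between adult and fetal liver, 6 were higher and 2 lower in adult liver, where 84% of all genes tested were called (40% higher and 44% lower). Between adult liver and fibroblasts 6 were higher and 2 lower (87.7% of all genes called, 42.9% higher and 44.8% lower). Between fetal liver and fibroblasts 3 were higher, 4 lower and 1 not called (86% of all genes called, 45.1% higher and 40.9% lower). The share called in either direction was thus near that of all genes. The median log2 fold of the 8 was 3.28 between adult and fetal liver, 3.45 between adult liver and fibroblasts and -0.44 between fetal liver and fibroblasts, against -0.10, -0.06 and 0.09 over all genes tested; these medians were not tested. Adult liver levels depend on scaling: its TMM factors were 0.445 and 0.451 against 1.09 to 1.22 in the other 12 libraries. The median log2 difference of all genes between adult and fetal liver was -0.10 with TMM and -1.55 with total counts, and the share of called genes that were higher went from 47.6% to 18.1%. Between adult liver and fibroblasts, that median went from -0.06 to -1.44 and the share from 48.9% to 24.6%. The directions and calls of all 8 genes in these 3 comparisons were the same with total counts, but every log2 fold with adult liver moved down by over 1. Against fetal liver they became 0.61 for Bace2, 1.47 for Slc18a1, 2.20 for Adora1, 2.47 for Hpgd, 2.67 for Tcn2, 4.73 for Ppp1r1b, -1.95 for Cers4 and -4.90 for Atp2a3. Against fibroblasts they became 1.03 for Ppp1r1b, 1.63 for Tcn2, 2.51 for Adora1, 3.92 for Slc18a1, 3.95 for Atp2a3, 5.15 for Hpgd, -1.74 for Bace2 and -3.91 for Cers4.

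Adora1 (chr1:134199223-134235431, minus strand; positions of genes are GRCm38, GENCODE M21) had 383 and 360 counts in 2D-iH, 276 and 195 in 2D-iHE. The iHLO libraries held 7431 and 6852 and the iHEA libraries 5478 and 4886. Fibroblasts had 20 and 19 counts, adult liver 126 and 130, and fetal liver 21 and 22. Both 3D conditions were far above the rest, and fibroblasts and fetal liver were lowest. Mean CPM was 195 ± 30.1 in 3D and 9.29 ± 2.02 in 2D (SD, n = 4 each), a ratio of 20.97. Adult liver (8.24 CPM) lay between 2D-iH and 2D-iHE on the TMM scale and below both on total counts (3.69 against 11.97 and 8.60). Adora1 was higher in adult than in fetal liver, by a log2 fold of 3.65 ± 0.21 (SE; edgeR, adjusted p = 8.44e-08), and was not called between fetal liver and fibroblasts (0.24 ± 0.28, adjusted p = 0.47).

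Per kilobase, Adora1 made up 95.9% ± 0.52 of the signal of the 4 adenosine receptor genes in 3D (SD, n = 4) and 79.9% ± 6.2 in 2D. In fetal liver Adora2a, a receptor that raises cyclic AMP, made up 81.9% ± 0.10 (n = 2) and Adora1 5.15% ± 0.70. Among the other receptors in 3D against 2D, Adora2b rose from 3 to 13 counts per library to 63 to 70 (log2 fold 3.18 ± 0.23, edgeR adjusted p = 1.72e-07), Adora2a had a log2 fold of -0.02 ± 0.38 and was not called, and Adora3 had no counts. Of the 18 tested genes of adenosine signalling and turnover, 10 rose and 5 fell in 3D against 2D, where 75.9% of all 13409 genes were called (38.7% higher and 37.2% lower; 69.1% with 3D and 2D libraries that did not overlap). The median log2 fold of this list was 0.51, against 0.01 over all genes tested. The genes that rose most were Slc28a2, a sodium-coupled purine nucleoside carrier (5.21 ± 0.16), Entpd3, an enzyme that hydrolyses extracellular ATP (5.20 ± 0.10), and Alpl, tissue-nonspecific alkaline phosphatase (5.14 ± 0.21). Adk, the kinase that turns adenosine into AMP, fell by 1.49 ± 0.04 on the log2 scale, and the nucleoside transporter Slc29a1 fell by 1.04 ± 0.09. Entpd5, another nucleotide hydrolase, fell by 0.72 ± 0.09.

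Ppp1r1b (chr11:98348404-98357796, plus strand) was nearly silent in 2D, with 9 and 17 counts in 2D-iH and 16 and 13 in 2D-iHE. It had 1679 and 1704 counts in iHLO and 1832 and 1535 in iHEA. Fibroblasts had 68 and 52, adult liver 135 and 144, and fetal liver 5 and 3. The 3D libraries stood apart from all others, while 2D-iH and 2D-iHE overlapped. Mean CPM was 53.6 ± 1.76 in 3D and 0.434 ± 0.136 in 2D (SD, n = 4 each), a ratio of 123. It was higher in adult than fetal liver by a log2 fold of 6.16 ± 0.28 (edgeR, adjusted p = 1.05e-08) and lower in fetal liver than in fibroblasts by -3.76 ± 0.33 (adjusted p = 1.83e-06). An antisense transcript over the gene, 1700003D09Rik, had 9 to 22 counts per 3D library; whether counting used strand is not given in the sources used here.

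The catalytic subunits of protein phosphatase 1 changed little beside that. In 3D against 2D, Ppp1ca fell by 0.29 ± 0.05 and Ppp1cb by 0.25 ± 0.06 on the log2 scale, while Ppp1cc rose by 0.14 ± 0.04 (edgeR, adjusted p from 0.00054 to 0.00897). The related inhibitor genes Ppp1r1a and Ppp1r1c had at most 1 count per culture library. Of 16 tested genes of this phosphatase and of dopamine signalling, 5 rose and 9 fell, with a median of -0.27. Ppp1r3b, which targets the phosphatase to glycogen, rose by 0.99 ± 0.05, Cdk5r1, an activator of the kinase Cdk5, by 0.86 ± 0.22, and Ppp3ca, a calcineurin catalytic subunit, by 0.41 ± 0.05. Prkar2b, a regulatory subunit of the cyclic AMP-dependent kinase, fell by 4.57 ± 0.15 (from 436 to 672 counts per 2D library to 15 to 31 in 3D), Pde4d, a cyclic AMP phosphodiesterase, by 0.87 ± 0.07, and the phosphatase inhibitor Ppp1r2 by 0.81 ± 0.07.

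Atp2a3 (chr11:72961169-72993044, plus strand) had 358 and 320 counts in 2D-iH, 321 and 161 in 2D-iHE. In 3D the counts were 7814 and 8132 (iHLO) and 6628 and 6190 (iHEA). Fibroblasts had 3 and 4 counts, adult liver 56 and 72, and fetal liver 1728 and 1272. Fetal liver lay below both 3D conditions and above both 2D conditions without overlap, and adult liver lay below the 2D cultures. Mean CPM was 228 ± 23.1 in 3D and 8.74 ± 1.61 in 2D (SD, n = 4 each), a ratio of 26.1, and 46.0 ± 6.83 in fetal liver (n = 2). It was lower in adult than fetal liver, by a log2 fold of -3.46 ± 0.15 (edgeR, adjusted p = 8.77e-09), and higher in adult liver than in fibroblasts by 5.32 ± 0.37 (adjusted p = 2.59e-07).

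Among the 3 pumps of the endoplasmic reticulum, Atp2a3 took 26.4% ± 0.99 of the signal per kilobase in 3D (SD, n = 4), 1.34% ± 0.12 in 2D, 16.8% ± 1.7 in fetal liver (n = 2) and 2.44% ± 0.32 in adult liver. The housekeeping pump Atp2a2 had 15775 to 29209 counts per 2D library and 20464 to 24907 per 3D library and was not called (log2 fold 0.02 ± 0.08, edgeR adjusted p = 0.779). Atp2a1, the fast-muscle pump, had at most 10 counts per culture library. Of 17 tested genes of calcium stores and pumps 9 rose and 3 fell, with a median log2 fold of 0.19. Atp2c2, a Golgi and secretory-pathway calcium pump, rose by 3.44 ± 0.10, Atp2b4, a plasma membrane pump, by 3.22 ± 0.35, and Calr, the calcium-binding chaperone calreticulin, by 1.63 ± 0.06. Orai2, a store-operated channel subunit, fell from 1113 to 1909 counts per 2D library to 495 to 614 in 3D. On the log2 scale, the plasma membrane pump Atp2b1 fell by 0.21 ± 0.04 and the chaperone Hspa5 fell by 0.20 ± 0.07.

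Slc18a1 (chr8:69037711-69089235, minus strand) had 149 and 150 counts in 2D-iH, 104 and 66 in 2D-iHE. The iHLO libraries held 4490 and 4527 and the iHEA libraries 3474 and 3140. Fibroblasts had 10 and 6, adult liver 137 and 144, and fetal liver 47 and 32. No neighbouring conditions overlapped in its order of levels, which ran from iHLO and iHEA through adult liver and the 2D cultures to fetal liver and fibroblasts. With total counts adult liver (4.05 CPM) fell between 2D-iH (4.83) and 2D-iHE (3.06). Mean CPM was 124 ± 18.2 in 3D and 3.57 ± 1.02 in 2D (SD, n = 4 each), a ratio of 34.6. It was higher in adult than in fetal liver by a log2 fold of 2.92 ± 0.21 (edgeR, adjusted p = 4.33e-07). The starts of Slc18a1 and of Atp6v1b2, a subunit of the vesicular proton pump on the other strand, overlap. The mean CPM of Atp6v1b2 was 182 in 2D and 435 in 3D; without a stated strand setting the origin of reads in the shared stretch cannot be told apart.

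Its paralogue Slc18a2, the neuronal vesicular monoamine transporter, fell by 0.64 ± 0.14 on the log2 scale in 3D (edgeR, adjusted p = 0.00135), from 75 to 135 counts per 2D library to 52 to 83. Slc18a1 made up 98.3% ± 0.28 of the family signal per kilobase in 3D (SD, n = 4), 50.1% ± 6.9 in 2D and 80.9% ± 1.9 in adult liver (n = 2). Only 6 of 19 genes of monoamine storage and turnover passed the filter; 2 rose and 3 fell, with a median of -0.16. Hnmt, which methylates histamine, had at most 3 counts per 2D library and 34 to 92 per 3D library, and Maob, a monoamine oxidase, rose from 4 to 15 counts to 17 to 30. Maoa fell by 1.83 ± 0.12 on the log2 scale. Slc18a1 is also a marker of neuroendocrine cells: the summed level of 16 other neuroendocrine markers was 0.9 to 1.5 CPM in 2D and 4.8 to 7.4 in 3D (2 of 3 tested markers, Chgb and Neurod1, were called higher), with Sst at 0 in all cultures and Scg3, Scg5, Neurog3, Pcsk2, Snap25 and Gast at 3 counts or fewer in each. Among those under the filter, Chga had 0 to 1 counts per 2D library and 11 to 26 per 3D library, Insm1 1 to 3 and 11 to 18, Scg2 0 to 2 and 5 to 19, and Pcsk1 0 and 5 to 14. Syp overlapped, with 0 to 6 and 4 to 12, and Uchl1 had 0 to 4 and 0 to 1. The remaining tested marker, Ghrl, was not called, with 8 to 31 and 9 to 19. The part of such cells in the level of Slc18a1 was not tested.

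Bace2 (chr16:97356742-97442936, plus strand) had 328 and 290 counts in 2D-iH, 327 and 204 in 2D-iHE. In 3D the counts were 5529 and 5569 (iHLO) and 5849 and 5246 (iHEA). Fibroblasts had 997 and 802, adult liver 298 and 315, and fetal liver 155 and 157. The 3D conditions were highest and the 2D cultures lay below the fibroblasts they derive from. On total counts adult liver (8.84 CPM) was below the 2D cultures (9.74), and on the TMM scale above them (19.7 against 8.78). Mean CPM was 176 ± 7.09 in 3D and 8.78 ± 0.401 in 2D (SD, n = 4 each), a ratio of 20.1, and 26.2 ± 0.831 in fibroblasts (n = 2). Bace2 was lower in adult liver than in fibroblasts by a log2 fold of -0.36 ± 0.09 (edgeR, adjusted p = 0.00364), a call that DESeq2's Wald test did not make (-0.26, adjusted p = 0.0551) and that was larger with total counts (-1.74). It was higher in adult than fetal liver by 2.06 ± 0.11 (edgeR, adjusted p = 2.9e-08), or by 0.61 with total counts.

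The balance of the 2 β-secretase genes turned over. Bace1, the main β-secretase of neurons, had 1097 to 1839 counts per 2D library and 1032 to 1170 per 3D library and fell by 0.40 ± 0.05 on the log2 scale (edgeR, adjusted p = 1.4e-05). Per kilobase, Bace2 made up 80.4% ± 0.86 of the pair in 3D (SD, n = 4), 13.1% ± 0.49 in 2D, 12.5% ± 0.31 in fibroblasts (n = 2), 12.5% ± 0.37 in fetal liver and 39.4% ± 2.0 in adult liver. Of 15 tested genes of the secretases and their substrates, 10 rose and Bace1 alone fell, with a median log2 fold of 0.44. Aplp2, a relative of the amyloid precursor protein, rose by 1.37 ± 0.06, Psen2, a γ-secretase subunit, by 1.14 ± 0.08, and Furin, a proprotein protease, by 1.04 ± 0.06.

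**Figure D3:**
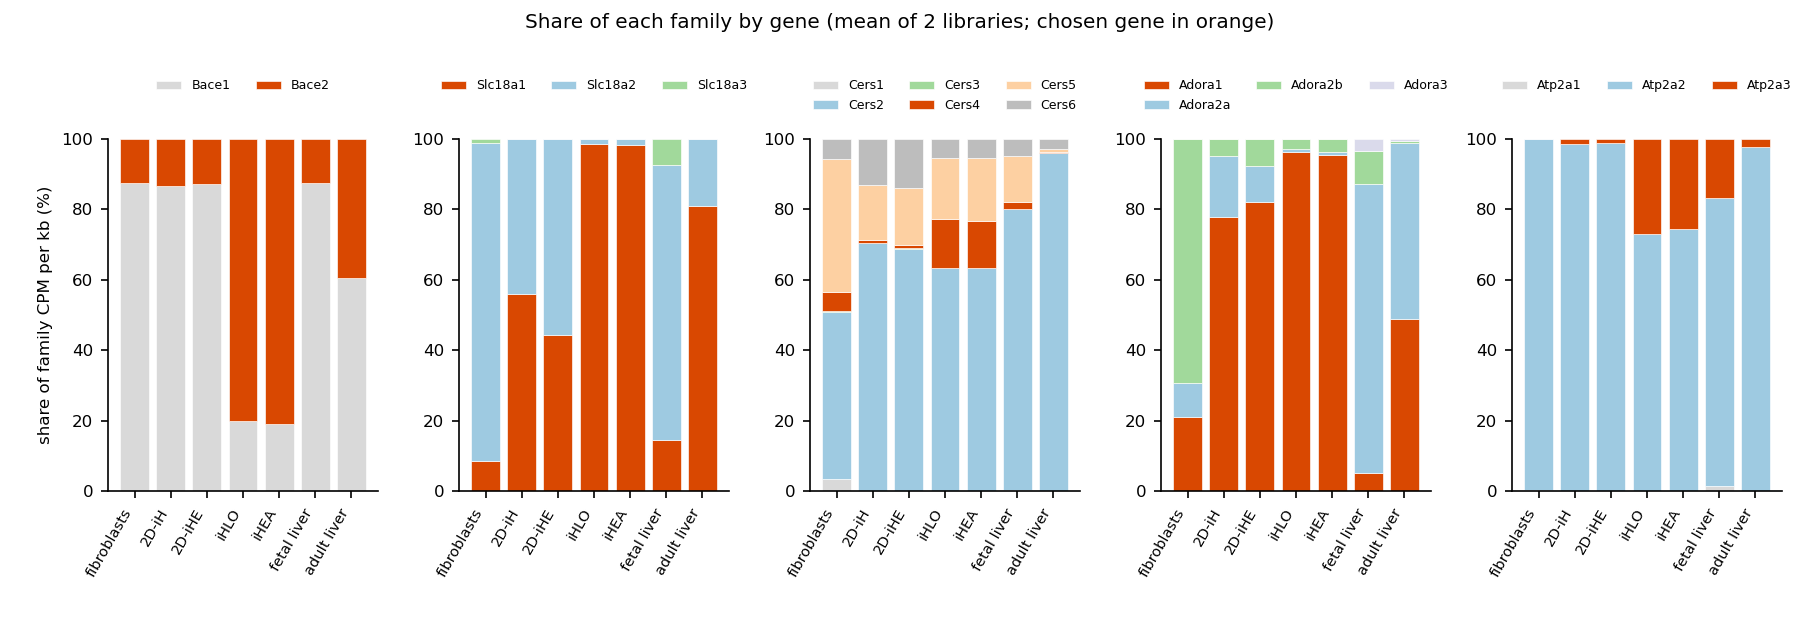
Share of each gene in its family (y axis, percent of the summed CPM per kilobase of exon; mean of 2 libraries) for 5 families in 7 conditions, with the chosen gene in orange. In 3D, Bace2 reaches 80.4% of its pair and Atp2a3 26.4% of its family, while Cers2 and Atp2a2 remain the most abundant of theirs.

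Cers4 (chr8:4493026-4531680, plus strand) had 365 and 294 counts in 2D-iH, 412 and 252 in 2D-iHE. The iHLO libraries held 6506 and 6851 and the iHEA libraries 5910 and 5859. Fibroblasts had 1711 and 1440, adult liver 110 and 129, and fetal liver 344 and 374. The order was 3D, fibroblasts, then fetal liver and the 2D cultures, with adult liver lowest; fetal liver and 2D-iHE overlapped, as did iHLO and iHEA. Mean CPM was 200 ± 15.2 in 3D and 10.1 ± 0.609 in 2D (SD, n = 4 each), a ratio of 19.7. Cers4 was lower in adult than in fetal liver by a log2 fold of -0.50 ± 0.12 (edgeR, adjusted p = 0.00368); without adult liver replicate 1 the value was -0.40 and the adjusted p 0.0535, and with total counts it was -1.95. Against fibroblasts it was lower in adult liver by -2.53 ± 0.11 (adjusted p = 7.53e-09).

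Of the 6 ceramide synthases, which differ in the fatty acids they use, Cers2 was the most abundant per kilobase in every condition and was not called between 3D and 2D (log2 fold -0.03 ± 0.04, edgeR adjusted p = 0.547). Cers4 went from 0.720% ± 0.060 of the family in 2D to 13.5% ± 0.87 in 3D (SD, n = 4), against 0.277% ± 0.011 in adult liver (n = 2). Cers6 went the other way, falling by 1.19 ± 0.04 on the log2 scale, and Cers3, the skin enzyme, fell by 1.09 ± 0.31 from 15 to 27 counts per library to 6 to 15. Cers5 rose by 0.25 ± 0.04, and Cers1 had at most 9 counts per culture library. Of 31 tested genes of ceramide and sphingolipid metabolism 23 rose and 5 fell, with a median log2 fold of 0.58. The largest rises were Sgpp2, a sphingosine-1-phosphate phosphatase (3.99 ± 0.10), Smpd3, a neutral sphingomyelinase (1.79 ± 0.05), and Degs1, the desaturase that completes ceramide (1.70 ± 0.05). The sphingosine kinase Sphk1 fell by 1.24 ± 0.24.

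Tcn2 (chr11:3917192-3932159, minus strand) had the smallest ratio. It had 933 and 829 counts in 2D-iH, 1029 and 643 in 2D-iHE. In 3D the counts were 5450 and 5507 (iHLO) and 5261 and 4594 (iHEA). Fibroblasts had 2172 and 1845, adult liver 6743 and 7449, and fetal liver 911 and 818. Mean CPM was 165 ± 5.35 in 3D and 26.3 ± 0.326 in 2D (SD, n = 4 each), a ratio of 6.28. Adult liver was highest on the TMM scale, at 457 ± 21.8 CPM (n = 2) or 2.77 times the 3D mean. With total counts the adult liver libraries, at 196 and 213 CPM, overlapped the 3D libraries (184 to 197). Fetal liver and 2D-iHE overlapped. Tcn2 was higher in adult than in fetal liver by a log2 fold of 4.12 ± 0.07 (edgeR, adjusted p = 1.1e-11) and than in fibroblasts by 3.01 ± 0.06 (adjusted p = 2.93e-11).

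Cd320, the receptor that takes up transcobalamin with its vitamin, rose by 0.78 ± 0.05 on the log2 scale in 3D (edgeR, adjusted p = 1.06e-07), from 323 to 517 counts per 2D library to 609 to 733. Cubn, a receptor for the dietary B12 complex, fell by 0.61 ± 0.07, and its partners Amn and Lrp2 had at most 21 counts per culture library and were not tested. Of 16 tested genes of B12 uptake and use 7 rose and 8 fell, with a median of -0.11. Lmbrd1, which exports the vitamin from lysosomes, rose by 0.67 ± 0.04, whereas its partner Abcd4 fell by 1.79 ± 0.06. Mmachc, which processes the vitamin in the cytosol, rose by 0.56 ± 0.06, and Mmab, a mitochondrial enzyme of the pathway, fell by 0.63 ± 0.06. Abcc1, which exports the vitamin from cells among other substrates, fell by 2.10 ± 0.05.

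Hpgd (chr8:56294585-56321043, plus strand) had the largest ratio, from 7 and 8 counts in 2D-iH and 6 and 6 in 2D-iHE to 2753 and 2487 in iHLO and 2060 and 2517 in iHEA. Fibroblasts had 96 and 82, adult liver 3747 and 3495, and fetal liver 576 and 447. The 2D cultures were lowest, below fibroblasts, and overlapped each other, as did iHLO and iHEA. With 6 to 8 counts per 2D library, the comparison of the 2D cultures could hardly show a difference (log2 fold -0.19 ± 0.98, SE). Mean CPM was 78.3 ± 11.7 in 3D and 0.212 ± 0.0467 in 2D (SD, n = 4 each), a ratio of 369. Adult liver reached 233 ± 16.8 CPM (n = 2), 2.98 times the 3D mean on the TMM scale, but its libraries at 99.8 and 109 CPM overlapped the 3D range of 71.9 to 106 with total counts. Hpgd was higher in adult than fetal liver by a log2 fold of 3.92 ± 0.09 (edgeR, adjusted p = 6.38e-11) and in fetal liver than fibroblasts by 2.62 ± 0.12 (adjusted p = 1.8e-08).

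Slco2a1, the importer that brings prostaglandins to Hpgd, was already abundant in 2D (18156 to 35705 counts per library) and rose by 0.43 ± 0.09 on the log2 scale in 3D (edgeR, adjusted p = 0.00124). Of 16 tested genes of prostaglandin synthesis, receptors and breakdown 6 rose and 9 fell, with a median of -0.23. On the synthesis side, Ptgs1, the constitutive cyclooxygenase, rose by 2.16 ± 0.16 and Ptgds, a prostaglandin D synthase, by 2.65 ± 0.43. Ptges, the inducible prostaglandin E synthase, fell by 1.76 ± 0.11, and Pla2g4a, a phospholipase that frees arachidonic acid, fell by 2.33 ± 0.42. Ptgs2 had at most 3 counts per culture library. Of the prostaglandin E receptors, Ptger4 rose by 1.57 ± 0.11, Ptger1 was not called (-0.20 ± 0.22), and Ptger2 and Ptger3 had at most 8 counts per culture library and were not tested. Ptgr1, a reductase of the breakdown route, fell by 1.96 ± 0.08.

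2210407C18Rik (chr11:58608204-58616075, minus strand) had 64 and 62 counts in 2D-iH, 25 and 24 in 2D-iHE. The iHLO libraries held 3514 and 3300 and the iHEA libraries 4056 and 3680. Fibroblasts had 2 and 0 counts, adult liver 16 and 19, and fetal liver 0 and 0. The 3D libraries stood far above all others, and adult liver, at 1.13 CPM, lay between 2D-iH and 2D-iHE on the TMM scale and below both with total counts (0.504 against 2.03 and 0.931). Mean CPM was 116 ± 12.9 in 3D and 1.34 ± 0.625 in 2D (SD, n = 4 each), a ratio of 86.3. Set against a floor of 3 counts per library, which covers counting error only, the 3D level was at least 1249-fold higher than in fetal liver and at least 1313.5-fold higher than in fibroblasts. Its start in RefSeq lies inside the longer GENCODE gene, and the promoter window printed above holds 0 bases of GENCODE exon, lying between exons that end at 58613492 and begin at 58615935.

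Over the 8 pathway lists together, 135 of 190 genes were tested, 72 rose and 43 fell in 3D against 2D, in the edgeR fit of the 8 culture libraries in which 75.9% of all genes were called. The plot of pathway genes shows members of each list on both sides of zero. Some lie beyond the gene they surround: Slc28a2 (5.21), Entpd3 (5.20) and Alpl (5.14) had larger log2 folds than Adora1 (4.43). Hnmt, at the floor in 2D, was at least 20.2-fold higher and has no measured fold to set beside that of Slc18a1.

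**Figure D4:**
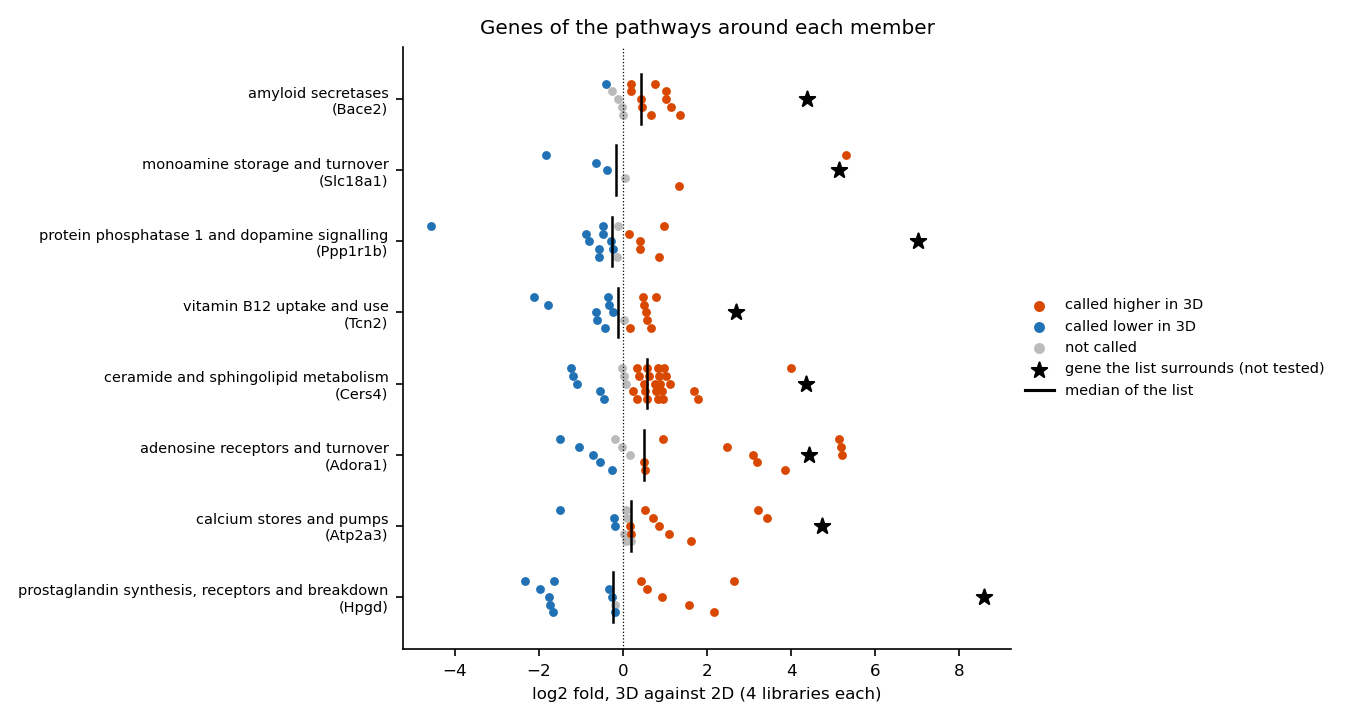
Log2 fold in 3D against 2D (x axis; 4 libraries each) for the tested genes of 8 pathway lists, in orange where called higher, blue where called lower and grey otherwise, with the list median as a bar and the surrounded gene, chosen for its difference and not tested, as a star. The medians lie between -0.27 and 0.58, while the stars lie between 2.69 and 8.58.

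Adding iECs was compared within 3D and within 2D, in 1 edgeR fit of the 8 culture libraries. The stated reason for choosing the genes did not rest on this comparison, though earlier results of these data were known. Between iHEA and iHLO, 3 of the 9 genes were called, where 2.26% of all 13409 genes were (1.19% higher and 1.07% lower). 2210407C18Rik was higher in iHEA, at 127 ± 5.39 CPM against 105 ± 3.25 (SD, n = 2 each; log2 fold 0.29 ± 0.06, edgeR adjusted p = 0.0361). Adora1 was lower in iHEA, at 169 ± 5.18 against 220 ± 9.66 CPM (-0.36 ± 0.06, adjusted p = 0.00585). Slc18a1 was also lower, at 108 ± 4.32 against 139 ± 2.69 CPM (-0.35 ± 0.06, adjusted p = 0.00639). Atp2a3 had -0.21 ± 0.06 and was not called (adjusted p = 0.122), and the other 5 genes had log2 folds from -0.08 to 0.10. These calls rest on few libraries: none remained without iHLO replicate 1, Adora1 alone without iHLO replicate 2, and 6 were made without the unnumbered iHEA library (adding Atp2a3, Cers4 and Hpgd, all lower in iHEA). Without iHLO replicate 1, 4 of the 9 had an unadjusted p under 0.05. Over all 15 alternatives the log2 folds ranged from -0.41 to -0.31 for Adora1, from -0.40 to -0.29 for Slc18a1 and from 0.22 to 0.35 for 2210407C18Rik. 2210407C18Rik was also not called without 2D-iH replicate 1 or 2 (adjusted p = 0.0637 and 0.0641) in the fit of all 14 libraries (0.0663), or with the replicate block over 7 libraries (0.13).

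In 2D the same 3 genes were called, all lower in 2D-iHE than in 2D-iH, where 8.17% of all genes were called (4.26% higher and 3.92% lower). 2210407C18Rik went from 1.87 ± 0.116 to 0.819 ± 0.250 CPM (log2 fold -1.23 ± 0.23, edgeR adjusted p = 0.00581). Slc18a1 went from 4.43 ± 0.397 to 2.71 ± 0.0466 CPM (-0.69 ± 0.13, adjusted p = 0.0062), and Adora1 from 10.99 ± 0.452 to 7.59 ± 0.706 (-0.52 ± 0.10, adjusted p = 0.00597). Atp2a3 had -0.37 ± 0.11 and an adjusted p of 0.0514, and was called in 6 of its 15 alternative settings. Without 2D-iHE replicate 1 none of the 9 was called in the edgeR test (4 at an unadjusted p under 0.05), and without 2D-iH replicate 2 only 2210407C18Rik was. Over all 15 alternatives the log2 folds ranged from -0.78 to -0.59 for Slc18a1, from -0.63 to -0.39 for Adora1 and from -1.53 to -0.85 for 2210407C18Rik. Of all genes called in 2D, 52.1% were higher with TMM and 64.6% with total counts, while these 3 stayed lower under both.

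The difference between the co-culture effects in 3D and in 2D was tested directly as an interaction, where 3.14% of all genes were called (1.52% above 0 and 1.62% below). 2210407C18Rik was the only one of the 9 called, with a log2 difference of 1.51 ± 0.23 (edgeR, adjusted p = 0.00423). It was higher with iECs in 3D and lower with iECs in 2D. Without 2D-iHE replicate 1 the difference was 1.14 and the adjusted p 0.0887. For Adora1 the difference was 0.16 ± 0.11 (adjusted p = 0.556) and for Slc18a1 0.34 ± 0.14 (adjusted p = 0.264), so a difference between 3D and 2D was not detected for them. Human cells share the co-culture libraries, and the part of human reads aligned to mouse genes was not tested. The plot of co-culture differences shows these values with their errors.

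**Figure D5:**
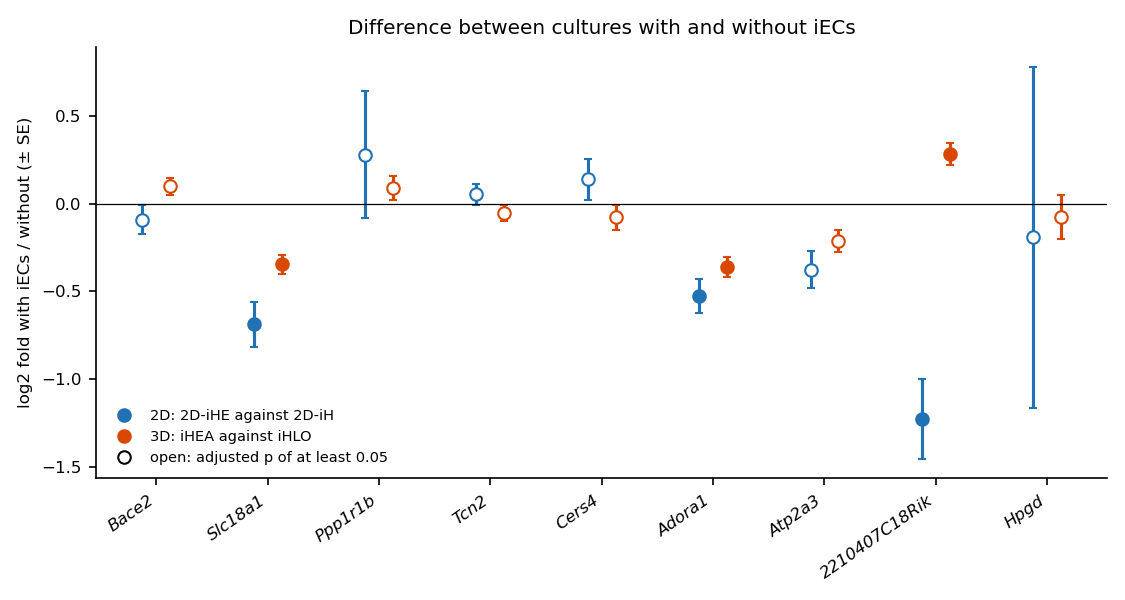
Log2 fold between cultures with and without iECs (y axis, ± SE from the edgeR fit; 2 libraries per condition) for the 9 genes in 2D (blue) and 3D (orange); filled points have an adjusted p under 0.05. Adora1 and Slc18a1 lie below zero in both, and 2210407C18Rik lies at -1.23 in 2D and 0.29 in 3D.

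Across the 7 condition means of log2 CPM, the 9 genes did not share 1 pattern. Pearson's r was highest for Adora1 with 2210407C18Rik (0.993) and lowest for Tcn2 with Atp2a3 (0.18). Among 14121 genes, the gene most alike was Galnt4 for Bace2 (r = 0.997), Cln3 for Slc18a1 (0.991), Epb41l4b for Tcn2 (0.996) and Oit1 for Cers4 (0.990). It was Csprs for Adora1 (0.998), Vwf for Atp2a3 (0.992), Abhd17c for 2210407C18Rik (0.996) and 0610040J01Rik for Hpgd (0.986). Pllp and Llgl2 were among the 3 nearest of both Adora1 and 2210407C18Rik. These 7 points share libraries and scaling, and a few high conditions set each r. Pearson's r also takes no account of the size of a change. Mean CPM in 2D and 3D was 56.3 and 119 for Abhd17c, 19.1 and 51.0 for Cln3, and 16.2 and 55.2 for Galnt4. It was 12.1 and 71.9 for Epb41l4b, 0.387 and 4.23 for Csprs, and 1.12 and 24.2 for 0610040J01Rik. For Vwf it was 21.3 and 587, and for Oit1 0.0504 and 12.3.

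Among the marker lists of other cell types, the mucosa and endothelial sums, like the neuroendocrine sum above, were higher in every 3D library than in every 2D library. The fibroblast, leukocyte and blood, and tuft cell sums overlapped between 2D and 3D. The summed level of 14 gastric and intestinal mucosa markers was 513 to 948 CPM in 2D and 2680.5 to 2794 in 3D. Of 11 tested markers 10 were called higher. For this and the other marker lists, the share over all 13409 genes was 38.7% called higher and 37.2% lower. Gkn1, a stomach mucosal protein, went from 14 to 33 counts per library to 3069 to 5893. The sum of 10 mouse endothelial markers was 413 to 488 in 2D, 1234 to 1370 in iHLO and 874 to 953 in iHEA, with 4 of 6 tested called higher, 1 lower and Erg and Emcn at 3 counts or fewer. Most of that sum was Cdh5 (427 CPM in 2D and 410 in 3D, not called) and Vwf, which alone went from 21.3 CPM in 2D to 730 in iHLO and 445 in iHEA. The hepatocyte sum, which includes Hnf4a, was 823 to 927 in 2D and 1249 to 1286 in 3D (4 of 7 tested higher, 3 not called). In adult liver it was 555302 to 587061 on the TMM scale. The cholangiocyte sum was 1139.8 to 1420.2 in 2D, 1403 to 1500.2 in iHLO and 1755 to 1798 in iHEA (6 of 10 higher, 2 lower). The fibroblast sum was 4.99 to 13.96 CPM in 2D and 4.82 to 12.4 in 3D, the leukocyte and blood sum 25.7 to 27.1 and 25.3 to 29.9, and the tuft cell sum 278 to 328 and 233 to 315. The part of these cell types in the levels of the 9 genes was not tested.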

How the data were processed

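RNA-seq libraries (paired-end) were made from 14 samples of 7 conditions, grouped by their labels. The authors trimmed reads with Trimmomatic 0.36, aligned them to the mouse genome (mm10) with HISAT2 and counted them with HTSeq; Cufflinks is also named in the submitters' processing notes, and strand settings are not given in the sources used here. The deposited values are whole-number read counts per gene, not normalized, with 20851489 to 35143325 counts per library. Genes whose log2(count + 1), averaged across the libraries fitted, reached 3 were tested with edgeR 4.0.16 (R 4.3.3, limma 3.58.1), TMM normalization, the quasi-likelihood test and Benjamini-Hochberg adjustment over all genes tested; a call is an adjusted p under 0.05. The 8 culture libraries and the 6 reference libraries were fitted apart, and SE is the log2 fold over the root of F. For 3D against 2D, the culture fit pooled cultures with and without iECs in each group, without a co-culture term. The co-culture comparisons used a separate fit with 1 term per culture condition. CPM used TMM sizes of all 14 libraries. Alternatives were other filters, DESeq2 1.42.0 size factors and its Wald test, 1 fit of 14 libraries, each library left out, a replicate block and, added after seeing the data, total counts. The fits were tested on simulated data. The 9 genes and all lists were chosen with earlier results of these data known. Named genes are the 9, their family members and partners, and per list the 3 largest rises and 3 largest falls among called genes whose 3D and 2D libraries do not overlap; the nearest genes by Pearson's r were taken from condition means with a prior count of 2. Some genes that this rule names are not reported here. Exon lengths and gene positions came from GENCODE M21, with exons merged over all transcripts, so a level per kilobase depends on which transcripts are used. Intervals and floors cover counting error only.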

Additional observations from a re-analysis of the deposited data

Results flagged for a closer look

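2210407C18Rik was the 1 result picked out for a closer look, because its co-culture effect differed between 3D and 2D by the test of the difference itself. The log2 difference was 1.51 (edgeR, adjusted p = 0.00423). Its 3D side, iHEA against iHLO, ranged in log2 fold from 0.22 to 0.35 over 15 alternatives. That side lost its call in the fit of all 14 libraries, among other settings. The 2D side rests on 62 and 64 counts against 24 and 25. Over the 15 alternatives of this difference the value ranged from 1.14 to 1.82 and the adjusted p from 1.79e-08 to 0.0887, and it was under 0.05 in 14 of them. No library of the 9 genes stood apart from the other 3 of its 2D or 3D group by Dixon's test at 0.829. Each group pools cultures with and without iECs, which limits this test. The 2D libraries of 2210407C18Rik lay in pairs (0.64 and 1.00 CPM in 2D-iHE, 1.78 and 1.95 in 2D-iH), where it can hardly single out 1 library.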

How the results depend on the processing

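Of 717 single-gene values under alternative settings, 679 kept direction and side of the threshold, 17 lost the call, 12 gained it and 9 turned direction. The number of the 9 genes called was 3 for iHEA against iHLO (0 to 6 with each library left out), 3 for 2D-iHE against 2D-iH (0 to 4) and 1 for the interaction (0 to 1); the other settings gave 2 to 4, 3 to 4 and 1. The 0 for iHEA against iHLO was without iHLO replicate 1 and the 0 in 2D and for the interaction without 2D-iHE replicate 1, each with fewer samples in the fit (4, 4 and 1 genes at an unadjusted p under 0.05). Over all genes, 303, 1096 and 421 were called in the 3 comparisons, 881, 1577 and 901 with no filter on low counts, and 93 to 723, 250 to 2014 and 129 to 959 with each library left out. The pathway count of 115 ranged from 102 to 128 and the median log2 ratio of 4.71 from 4.60 to 4.78. Of the 9 values that turned direction, none was called where it turned. With each library left out, the log2 fold of iHEA against iHLO ranged from -0.20 to 0.046 for Cers4 and from -0.37 to 0.18 for Hpgd, positive only without iHEA replicate 1 and called only without the unnumbered iHEA library. That of 2D-iHE against 2D-iH ranged from -0.19 to 0.89 for Ppp1r1b and from -0.51 to 0.22 for Hpgd, turning without 2D-iH replicate 1 and 2D-iHE replicate 1. The interaction ranged from -0.79 to 0.29 for Ppp1r1b and from -0.29 to 0.44 for Hpgd, with Hpgd at -0.06 without 2D-iH replicate 2, -0.18 without the unnumbered iHEA library and -0.22 with the replicate block. Hpgd and Ppp1r1b had 6 to 17 counts per 2D library, which limits their 2D values; the cause was not tested otherwise. With a left-out library its condition has 1 sample, assumed to vary like the others.

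Library numbers did not pair the samples: differences between libraries 1 and 2 correlated at -0.04 to 0.04 between conditions. With the replicate block, over 7 culture libraries because the unnumbered iHEA library was dropped, 4 genes were called for iHEA against iHLO (all lower, with the call of 2210407C18Rik lost), 4 in 2D, 1 for the interaction and 113 of the pathway genes, with 617, 1945 and 772 of all genes called; 8, 8 and 7 were called in the 3 reference comparisons.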
